A study of Mus musculus with 6 samples.

Results

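The gene windows of Bcl11b and Ets1 held 43 of the 54058 mSin3A islands listed for splenic CD8 T cells, 19 at Bcl11b and 24 at Ets1. An island is a stretch of enriched ChIP-seq signal, and mSin3A is a large scaffold on which histone deacetylases and their partners assemble into a co-repressor. Members were all islands of the 4 deposited lists that overlapped chromosome 12, 109138000 to 109252000 (Bcl11b, minus strand, promoter near 109241800) or chromosome 9, 32433000 to 32576000 (Ets1, plus strand), on mouse build mm9. Every one of them lay wholly inside its window. Condition 1 of the deficient cells gave 16 members and condition 2 gave 10, against 10 and 7 in WT cells. The whole lists held 15954 and 13556 islands in deficient cells, against 13397 and 11151 in WT cells.

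Cells were sorted from spleen as CD8+ with high surface T cell receptor beta. The deficient mice are labelled Tcf1-/-Lef1-/-, with both factors removed by a Cre recombinase driven from Cd4 sequences, which acts in developing thymocytes. The controls are labelled wild type (WT). Each genotype has 1 ChIP library in condition 1 and 1 in condition 2, and what sets the conditions apart is not stated in the labels. The sources used here give no strain, age, sex or number of animals. With 1 library per genotype and condition, no difference has a replicate check and no test was made. The lists held 13556 to 15954 islands with 1901826 to 1917097 reads in deficient cells, against 11151 to 13397 islands with 1792952 to 1857866 reads in WT cells. Input libraries were not used here, and the background at both loci was therefore not tested. The island lists hold no expression values, so the markers of the sorted cells could not be read from them.

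Bcl11b is a zinc finger transcription factor that commits thymocyte progenitors to the T cell lineage and helps to keep mature T cells in it. Ets1 is the founding member of the ETS family of transcription factors and is needed for the development and survival of T cells, CD8 cells included. Tcf1 and Lef1 are related HMG-box factors that act beside them in thymocytes and bind DNA around the letters CTTTGA. The comparison between genotypes addresses how mSin3A is distributed over these genes when Tcf1 and Lef1 are absent.

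The Bcl11b promoter is shown because an mSin3A island covered the promoter point on mm9 in every library. A further reason is that the RefSeq promoter carries the core letters of the TCF/LEF and ETS families. In the RefSeq promoter of Bcl11b (250 bases before to 50 bases after the transcript start, GRCm38.p6, minus strand), CTTTGA occurred 1 time, from 89 to 84 bases before the start. The letters AGGAAG occurred 1 time, as the reverse complement CTTCCT, beginning at base 40 counted from the start. The RUNX core TGTGGT did not occur in this window. Capitals mark the matched letters in the 30 bases around each match, printed 5′ to 3′ on the strand of the gene; the first lies at chr12:108003486-108003515 and the second at chr12:108003365-108003394.
Bcl11b TCF/LEF core: agaggccaagcaCTTTGAagaagtgtgaga
Bcl11b ETS core: ctattttagagcaagccatCTTCCTggctt

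On either strand, CTTTGA is found in 16.0% of the 32851 promoters of that table, AGGAAG in 35.4% and TGTGGT in 16.8%, so each match is a common one. In the GENCODE M21 annotation the first and last starts of the 3 Bcl11b transcripts lie 0.188 kb apart. The CTTTGA stretch lies in the 5′ untranslated part of the first exon of 1 of these transcripts. The ETS stretch lies in the 5′ untranslated part of the first exon of all 3. These positions are on GRCm38 and were not placed on the mm9 islands.

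mSin3A islands covered most of the Bcl11b window in all 4 libraries, in a few wide blocks. The window was called over 53.7% and 62.6% of its length in deficient cells in conditions 1 and 2, against 68.1% and 67.5% in WT cells. In deficient cells this length was held by 6 and 5 islands, whose median width was 9.999 and 13.599 kb. In WT cells it was held by 4 islands in each condition, whose median width was 20.999 and 16.099 kb. The median island of the whole lists was 3.199 and 3.799 kb wide in deficient cells and 3.599 and 4.199 kb in WT cells, so Bcl11b carried far wider islands than most places in each list. The widest single island at the gene was 18.2 and 23.6 kb in deficient cells, against 25.8 and 33.0 kb in WT cells. By width the last of these ranked 34th of its list.

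**Figure D1:**
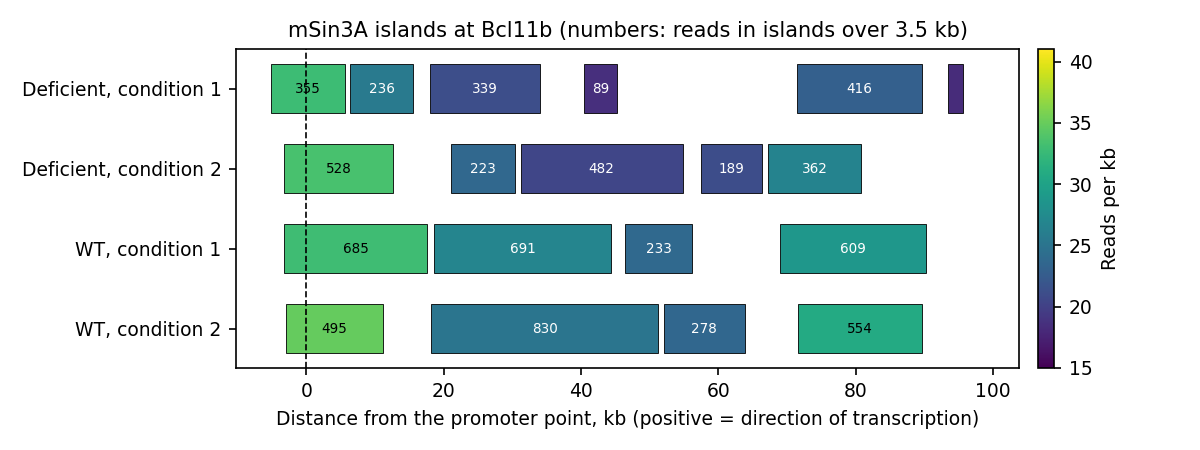
Islands at Bcl11b in the 4 libraries against the distance from the promoter point in kb, positive into the gene; each bar is 1 island, its colour gives reads per kb, and numbers are reads in islands over 3.5 kb. The dashed line is the promoter point, which lies in an island in every library, and the deficient libraries have 6 and 5 islands, against 4 in each WT library.

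Bcl11b was among the richest windows of the genome for mSin3A islands. Its mean over the 4 libraries was 1908.5 reads, and 31 of 4581 windows of the same 114 kb width that held an island in every library had as many, or 0.677%. The median of these windows was 261.5 reads. They were laid edge to edge along the chromosomes and not centred on genes, which favours a window drawn around a gene.

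Fewer reads lay in Bcl11b islands of deficient than of WT cells in both conditions. The deficient libraries held 1475 reads in condition 1 (exact Poisson 95% interval 1401 to 1552) and 1784 reads in condition 2 (1702 to 1869). The WT libraries held 2218 reads (2127 to 2312) and 2157 reads (2067 to 2250). In sorted populations, a change in the mix of CD8 cells and a change in each cell cannot be told apart. Both deficient values lay below both WT values, and this also held after division by a size factor for each library (1549 and 1770 against 2244 and 2015). Such an order is common: it was found in 18.5% of all windows of this width with reads as deposited and in 15.3% with size factors. Among the 299 windows that averaged at least 1000 reads it was found in 29.1% and 22.4%. The ratio of deficient to WT, centred on the median of regions called in all 4 libraries, was 0.694 (Clopper-Pearson 95% interval 0.649 to 0.741) in condition 1 and 0.877 (0.824 to 0.935) in condition 2. All intervals here cover counting error only and say nothing of the spread between animals or libraries.

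The condition 1 ratio at Bcl11b was low but not rare for a window of its size. On the log2 scale it was -0.53, and 8.70% of the windows with at least 1000 reads were as low, with a standard deviation among them of 0.51. The condition 2 ratio was -0.19, and 27.4% of these windows were as low. A centred deficit of 1.5-fold in deficient cells was found in 7.69% of these windows in condition 1 and in 9.36% in condition 2. Bcl11b did not reach it with the full lists after centring. It did so in condition 1 with no scaling (-0.59 on the log2 scale) and scaled by total island reads (-0.62). With only the richer 50% of islands kept per list, and centred on those lists, it also did so (-0.66). The shares of windows above are for full lists and centred ratios, and none were computed for these settings. Between conditions within a genotype, the centred log2 ratio of condition 2 to condition 1 at Bcl11b was 0.20 in deficient and -0.15 in WT cells.

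Part of the gap in reads at Bcl11b lay in called length and part in read density. Called length was 61.2 and 71.4 kb in deficient cells and 77.6 and 77.0 kb in WT cells, ratios of 0.789 and 0.927. Length ratios were not centred. Of the windows with at least 1000 reads, 27.4% had a length ratio as low in condition 1 and 40.5% in condition 2. Read density was 24.1 and 25.0 reads per kb in deficient cells, against 28.6 and 28.0 reads per kb in WT cells. The centred density ratio was 0.839 in condition 1 and 0.896 in condition 2. Both deficient densities lay below both WT densities, as in 17.4% of all windows of this width and 23.1% of those with at least 1000 reads.

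Joining touching or overlapping islands across the lists left 4 regions at Bcl11b. The 3 wide ones were called in every library, against 24.0% of the 23510 merged regions of all widths in the genome. In the direction of transcription they are called here the promoter, the middle and the distal region. The fourth, chromosome 12, 109146201 to 109148399, was called in deficient condition 1 alone with 40 reads. Regions called in 1 library alone make up 48.1% of all merged regions. Shares for wide regions only were not computed.

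The promoter region of Bcl11b, chromosome 12, 109224201 to 109246999, had read ratios on opposite sides of 1 in the conditions. It held 591 and 528 reads in deficient cells, against 685 and 495 reads in WT cells, so that the genotypes overlapped. The centred ratio was 0.900 (Clopper-Pearson 95% interval 0.805 to 1.01) in condition 1 and 1.13 (0.999 to 1.28) in condition 2. Both intervals include 1, and ratios of opposite sign on the log2 scale were found in 46.1% of regions called in all 4 libraries. Reads per kb were the highest of the 3 wide regions in every library, at 29.6 and 33.4 reads per kb in deficient cells and 32.9 and 34.9 reads per kb in WT cells. The single island that contains the promoter point held 355 and 528 reads over 10.8 and 15.8 kb in deficient cells. In WT cells it held 685 and 495 reads over 20.8 and 14.2 kb. In reads per kb this island was nearly level, with 32.9 and 33.4 in deficient and 32.9 and 34.9 in WT cells. It reached 5.199 and 3.199 kb upstream of the point in deficient cells, against 3.199 and 2.999 kb in WT cells, and it ran 5.60 and 12.6 kb into the gene in deficient cells, against 17.6 and 11.2 kb in WT cells. In deficient condition 1 a gap of 800 bp set it apart from the next island, which held 236 reads.

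The middle region of Bcl11b, chromosome 12, 109175401 to 109223799, held the most reads of the gene in 3 of the 4 libraries. At 48.4 kb it ranked 49th in width among the 5637 regions called in all 4 libraries, of which 0.905% were as wide. It held 428 and 894 reads in deficient cells, against 924 and 1108 reads in WT cells. The deficient libraries lay below both WT libraries here, and condition 1 of the deficient cells lay far below the other 3. Both deficient libraries lay below both WT libraries in 24.9% of regions called in all 4 libraries with reads as deposited and in 19.8% with size factors. In those with at least 300 reads on average, a limit that the 5 wide regions of both genes pass, the shares were 30.3% and 24%. The centred ratio was 0.483 (Clopper-Pearson 95% interval 0.430 to 0.543) in condition 1 and 0.856 (0.783 to 0.936) in condition 2. A deficit of at least 2-fold in condition 1 was found in 2.77% of regions called in all 4 libraries. In those with at least 300 reads on average it was found in 2.23%. Called length was 20.8 and 42.0 kb in deficient cells, against 35.6 and 44.8 kb in WT cells. Reads outside called islands are not known, so the ratio of 0.483 compares sums over unlike lengths. Density was 20.6 and 21.3 reads per kb in deficient cells, against 26.0 and 24.7 reads per kb in WT cells, the lowest of the 3 wide regions in each library.

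The distal region of Bcl11b, chromosome 12, 109151601 to 109174599, was lower in deficient cells by nearly the same amount in both conditions. It held 416 and 362 reads in deficient cells, against 609 and 554 reads in WT cells. The groups did not overlap, which was likewise the case, in this direction, in 24.9% of regions called in all 4 libraries. Among those with at least 300 reads on average the share was 30.3%. The centred ratio was 0.713 (Clopper-Pearson 95% interval 0.628 to 0.809) in condition 1 and 0.693 (0.606 to 0.793) in condition 2. Called length was 18.2 and 13.6 kb in deficient cells and 21.2 and 18.0 kb in WT cells. Density was 22.9 and 26.6 reads per kb in deficient cells, against 28.7 and 30.8 reads per kb in WT cells.

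Islands covered a smaller share of the Ets1 window, and no library had an island upstream of position 32483001 in it. The mean at Ets1 over the 4 libraries was 1429 reads. Of 4191 windows of the same 143 kb width with an island in every library, 132 had as many, or 3.15%. The median of these windows was 286.5 reads, and they too were laid edge to edge and not centred on genes. Called length was 29.5% and 33.0% of the window in deficient cells, against 31.3% and 43.1% in WT cells. It was held by 10 and 5 islands in deficient cells and by 6 and 3 islands in WT cells. Their median width was 4.199 and 7.199 kb in deficient cells, against 9.199 and 15.999 kb in WT cells. More islands in deficient cells in both conditions, as seen at both genes, was found in 23.4% of all windows of the Ets1 width of 143 kb and in 38.1% of those with at least 1000 reads. For windows of the Bcl11b width these shares were 21.4% and 35.1%. In the GENCODE M21 annotation, on GRCm38, 2 of 6 Ets1 transcripts start at the upstream end of the gene, and the first coding one starts 59.8 kb further on. Those starts were not placed on mm9, where the file coordinates lie.

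**Figure D2:**
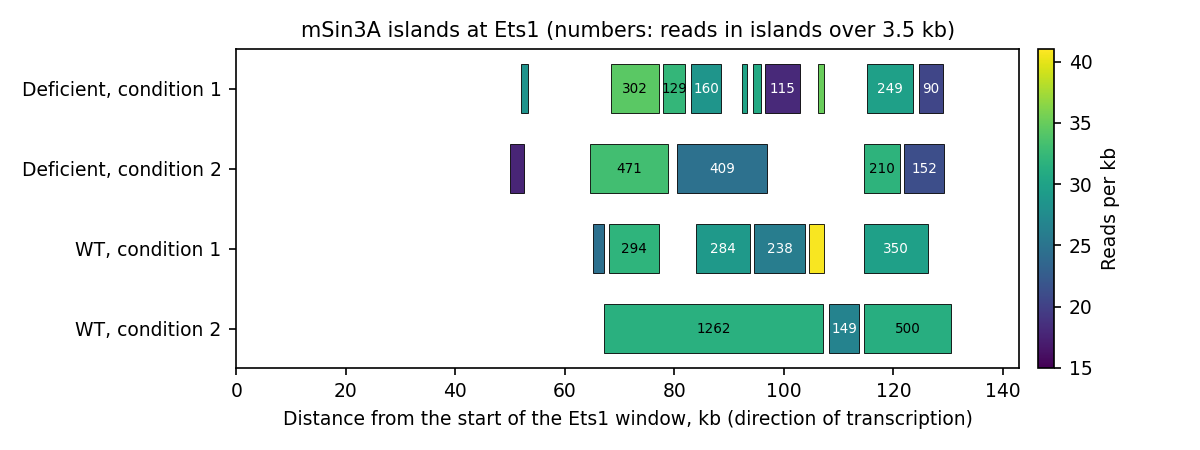
Islands at Ets1 in the 4 libraries against the distance in kb from the start of the window, in the direction of transcription; each bar is 1 island, its colour gives reads per kb, and numbers are reads in islands over 3.5 kb. WT condition 2 joins into 1 island of 1262 reads a stretch that deficient condition 1 splits into several, and the leftmost islands, set apart from the others, are in the deficient libraries only.

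Reads at Ets1 were lower in deficient cells in both conditions, with a counting interval of the ratio below 1 in condition 2 only. The deficient libraries held 1188 reads in condition 1 (exact Poisson 95% interval 1121 to 1258) and 1288 reads in condition 2 (1219 to 1360). The WT libraries held 1329 reads (1259 to 1402) and 1911 reads (1826 to 1999). Both deficient values lay below both WT values, also with size factors (1247 and 1278 against 1345 and 1785). Of all windows of this width 19.5% had that order with reads as deposited and 15.3% with size factors. Of the 365 with at least 1000 reads 27.1% and 19.2% had it. The centred ratio was 0.933 (Clopper-Pearson 95% interval 0.862 to 1.01) in condition 1 and 0.715 (0.666 to 0.768) in condition 2. On the log2 scale these were -0.10 and -0.48, and 35.3% and 8.49% of the windows with at least 1000 reads were as low. A centred deficit of 1.5-fold was found in 5.21% of them in condition 1 and in 6.3% in condition 2. Ets1 did not reach it after centring, but did so in condition 2 when scaled by total island reads (-0.67 on the log2 scale). No share of windows was computed with that scaling.

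WT condition 2 stood above the other 3 libraries at Ets1. Within WT cells the centred log2 ratio of condition 2 to condition 1 was 0.41, beside -0.48 between genotypes in condition 2, and the same WT library enters both. In deficient cells it was 0.04. The standard deviation of these ratios among windows with at least 1000 reads was 0.27 in deficient and 0.40 in WT cells. Called length at Ets1 was 42.2 and 47.2 kb in deficient cells, against 44.8 and 61.6 kb in WT cells. It was longest in WT condition 2, and here the genotypes overlapped. The length ratio, not centred, was 0.942 in condition 1 and 0.766 in condition 2. Of the windows with at least 1000 reads, 44.4% and 19.2% had a length ratio as low. Density was 28.2 and 27.3 reads per kb in deficient cells and 29.7 and 31.0 reads per kb in WT cells, a centred ratio of 0.945 in condition 1 and 0.883 in condition 2. Both deficient densities lay below both WT densities, as in 17.7% of all windows of this width and 24.4% of those with at least 1000 reads.

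Merging left 4 regions at Ets1, of which 2 were called in every library. The first of these along the gene, chromosome 9, 32497601 to 32540399, held most of the reads. It had 815 and 880 reads in deficient cells, against 979 and 1262 reads in WT cells. The groups did not overlap, as in 24.9% of regions called in all 4 libraries and 30.3% of those with at least 300 reads. In WT condition 2 it was a single island of 40.0 kb, the 14th widest and 20th richest of its list by reads. In deficient condition 1 the same region was split into 7 islands. The centred ratio was 0.869 (Clopper-Pearson 95% interval 0.791 to 0.954) in condition 1 and 0.740 (0.678 to 0.807) in condition 2. Density was 28.9 and 28.6 reads per kb in deficient cells and 29.7 and 31.6 reads per kb in WT cells.

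The second Ets1 region called in every library, chromosome 9, 32547601 to 32563599, held 339 and 362 reads in deficient cells, against 350 and 500 reads in WT cells. Here the genotypes overlapped. The centred ratio was 1.01 (Clopper-Pearson 95% interval 0.868 to 1.18) in condition 1 and 0.768 (0.669 to 0.881) in condition 2. Between it and the first region, chromosome 9, 32541201 to 32546799, was called in WT condition 2 alone with 149 reads. Density in the second region was 26.5 and 26.2 reads per kb in deficient cells, against 29.7 and 31.3 reads per kb in WT cells.

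**Figure D3:**
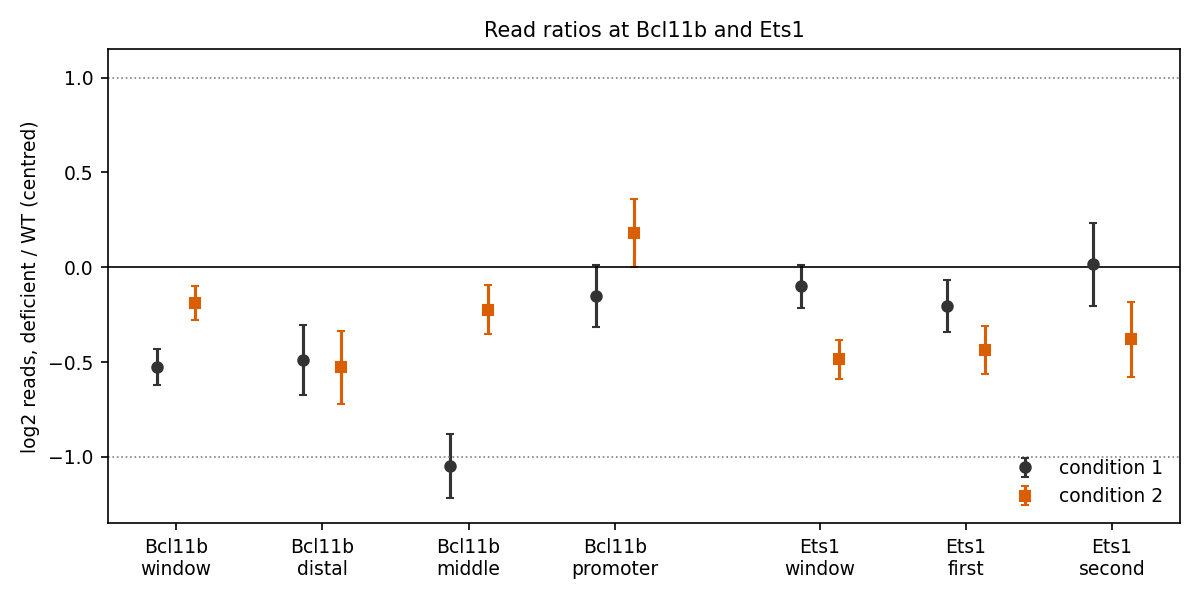
Centred log2 ratio of reads in deficient over WT cells for both gene windows and for the 5 regions called in all 4 libraries; circles are condition 1, squares condition 2, bars the 95% Clopper-Pearson interval for counting error, and dotted lines mark 2-fold. Most points lie below 0, the middle region of Bcl11b in condition 1 reaches -1.05, and the promoter region of Bcl11b lies on both sides of 0.

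A region of Ets1 was called in deficient cells only. Chromosome 9, 32483001 to 32486199, held 34 and 46 reads in deficient cells, in islands of 1.20 and 2.60 kb, and no island was listed there in either WT library. With the upper 50% of each list by reads, or with lists of equal length, this deficient-only region was lost. The islands of the conditions had 0.600 kb in common. They were small in their lists: 94.9% and 93.5% of islands had as many reads. Regions called in both deficient and neither WT library make up 8.98% of all merged regions, and regions called in both WT and neither deficient library make up 2.91%. No whole region of the second kind lay at either gene. A read number in a library without an island there is not known, so no fold is given.

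Of the 5 wide regions, 3 had a counting interval of the read ratio below 1 in both conditions. These were the middle and the distal region of Bcl11b and the first region of Ets1. This was found in 7.33% of regions called in all 4 libraries and in 13.6% of the 895 with at least 300 reads. Read density was lower in deficient cells in both conditions in all 5, after centring. Lower density in both conditions was found in 25.8% of regions called in all 4 libraries and in 30.8% of the richer ones. In 4 of the 5, all but the promoter region of Bcl11b, both deficient densities lay below both WT densities, an order that 17.3% of regions called in all 4 libraries and 21.1% of the richer ones had. The read ratio changed sign between conditions in the promoter region of Bcl11b and the second region of Ets1, as it did in 46.1% of regions called in all 4 libraries and in 44% of the richer ones. The regions of a gene lie side by side in the same libraries and do not count as separate observations.

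**Figure D4:**
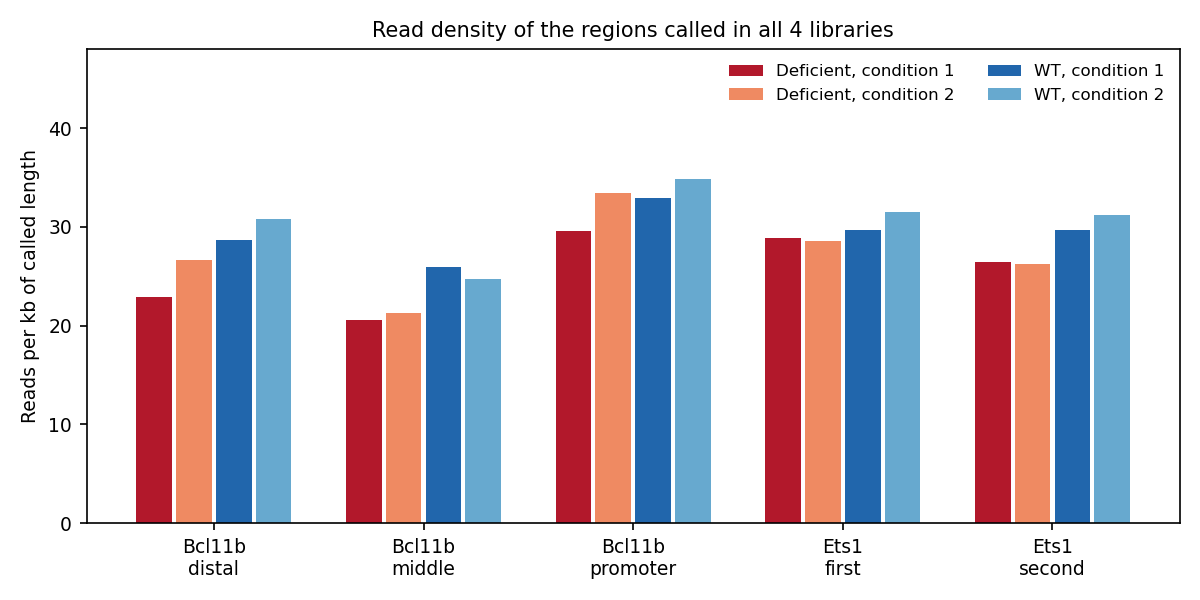
Reads per kb of called length in the 5 regions called in all 4 libraries, with 1 bar for each library. The promoter region of Bcl11b is the densest region of that gene in every library, and in the other 4 regions both deficient bars are lower than both WT bars.

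At both genes a large part of the called bases was common to all 4 libraries. Of the 96.4 kb called in any library within the Bcl11b window, 40.2% were called in all 4, and of the 67.6 kb at Ets1, 37.3%. Over all lists 16.4% of called bases were. Both windows are rich in reads, and the share in windows with at least 1000 reads was not computed. At Bcl11b the common part fell into 6 stretches of 2.80 to 9.40 kb, the longest at chromosome 12, 109211401 to 109220800. The stretch from 109236201 to 109244800 holds the promoter point. At Ets1 there were 8 such stretches of 0.400 to 8.80 kb, led by chromosome 9, 32501401 to 32510200.

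Stretches called in both libraries of 1 genotype and in neither of the other were short. At Bcl11b 1.40 kb were called in both WT libraries only, at chromosome 12, 109185601 to 109187000, and none in both deficient libraries only. At Ets1 2.40 kb were called in both WT libraries only, at chromosome 9, 32536001 to 32536800 and 32537601 to 32539200, beside the 0.600 kb of deficient cells. As shares of the called bases, both WT libraries only made up 1.45% at Bcl11b and 3.55% at Ets1, against 3.90% over all lists. Both deficient libraries only made up 0.888% at Ets1, against 6.28% over all lists. Bases missed by a single deficient library were more frequent: 15.4% of the called bases at Bcl11b were missed by deficient condition 1 alone and 12.4% by deficient condition 2 alone. At Ets1 these shares were 10.7% and 11.5%, and over all lists 2.73% and 2.60%. Bases missed by WT condition 1 alone made up 0.830% at Bcl11b and 9.17% at Ets1, and those missed by WT condition 2 alone made up 1.87% at Bcl11b and 0% at Ets1. Over all lists these shares were 3.72% and 4.12%. The shares over all lists count many bases called in 1 library alone, 11.5% to 14.6% for each library. At Bcl11b such bases made up 1.24% to 4.56% for each library, and at Ets1 0% to 11.5%. Shares for windows rich in reads were not computed.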

How the data were processed

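Per the submitters' processing notes, the tools were FastQC, Bowtie2 2.2.5 for alignment to mm9 and SICER 1.1 for islands. SICER's settings and any use of the inputs as background are not stated in the sources used here, and the 2 input libraries were not analysed here. The deposited lists hold 1 number per island, read as the count of ChIP reads from the layout and the values; these counts are not scaled by the authors. Total depth is not given, so island reads stand in for it. Island starts fell on multiples of 200 bp, and 1 was added to each start. In all lists islands lay at least 800 bp apart.

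Whole islands overlapping a window were summed. Reads outside islands are not listed and enter no sum or ratio. Read ratios of deficient to WT were centred on the median log2 ratio of the 5637 regions called in all 4 libraries (-0.06 in condition 1 and -0.09 in condition 2), and density ratios likewise. Size factors were medians of ratios over the same regions. The same sums over edge-to-edge windows of equal width gave the background. Functions were tested on simulated data. The limits of 1000 and 300 reads, the size factors and the density backgrounds were chosen after the data were seen. Members and lists were chosen with earlier results of these data known. Named were all merged regions of both windows. Other genes were not placed, since no mm9 annotation was at hand. Of both genes, Bcl11b matched a promoter sequence in RefSeq (GRCm38.p6). Python 3.11.15, numpy 2.4.6, pandas 2.3.3 and scipy 1.17.1 were used.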

Additional observations from a re-analysis of the deposited data

Results flagged for a closer look

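In 2 regions the read ratio of deficient to WT cells pointed in opposite directions in the conditions, and the difference was not tested. For the promoter region of Bcl11b the centred log2 ratio was -0.15 in condition 1 and 0.18 in condition 2. For the second region of Ets1 it was 0.015 and -0.38. Opposite signs were found in 46.1% of regions called in all 4 libraries.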

How the results depend on the processing

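Every read, length and density ratio of both genes stayed below 0 on the log2 scale under all 40 alternative values computed for them. Prorating reads to the window and counting only bases inside it are among them. Neither could change a value, since every island lay wholly inside its window. With the upper 50% of each list by reads, the condition 1 log2 ratio of reads was -0.66 at Bcl11b and -0.36 at Ets1, and that of called length was -0.52 and -0.37. With lists of equal length (11151 islands) the condition 1 read ratio at Ets1 was -0.24. Scaled by total island reads, the condition 2 read ratio was -0.37 at Bcl11b and -0.67 at Ets1. Merging islands within 2 kb left 1 region called in all 4 libraries at Bcl11b and 1 at Ets1. The deficient-only region of Ets1 was lost, leaving 0, with the upper 50% of each list and with lists of equal length, since its islands are poor in reads. The other 55 of 66 alternative values moved by no more than the distance from the read ratio of that gene and condition to its counting bounds, also used for length and density, or by no more than 1.5 times for counts. Those 55 include the settings that could not change a value. They also include the promoter call within 1 kb of the point, which was 4 of 4 libraries without that tolerance. No paired analysis was possible because the labels give no replicate numbers. Ratios were taken within each condition, and a fit with condition as a term was not made, since the conditions were not taken as replicates. Total depth is not given, and the absence of a call does not show the absence of mSin3A.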
